A study of Mus musculus with 8 samples.

Results

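The genes described here are 44 genes of endothelial cells and of vascular growth: the ligands and receptors of vascular endothelial growth factor (VEGF), the angiopoietins and their receptors, surface and junction proteins of endothelium, transcription factors of the endothelial lineage, lymphatic markers and vasoactive peptides with their receptors. They were chosen by name, case ignored, from the symbols of a deposited table of testis RNA sequencing, with earlier results of these data known. All 44 were found among its 24499 symbols, with 105 transcripts between them, and the transcript with the highest mean level over both groups stood for its gene. The samples were whole testes of mice of the 129/SVJ background at postnatal day 5, 4 of them wild type and 4 labelled Dio3KO, and by its title the study looked for genes that thyroid hormone regulates in the neonatal testis. The labels give neither the structure of the Dio3KO allele nor the zygosity or the litters, and they name no further allele or treatment in either group. Whether the 4 samples of a group came from 4 animals is stated only as biological replication, so p values measure the spread between these samples. The table gives, for each transcript, the mean of each group in RPKM (reads scaled to transcript length in kilobases and to library size), its coefficient of variation (CV, the SD divided by the mean) and an adjusted p value. No value of a single sample was used, so levels below are the authors' group means, each followed by its CV where it bears on the comparison, and read depth is unknown.

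Endothelial cells line blood and lymph vessels. In the testis the blood vessels run between the seminiferous tubules, among the Leydig cells and macrophages. VEGF-A acts through the receptor kinase encoded by Kdr, while Flt1 encodes a receptor that binds VEGF-A, VEGF-B and placental growth factor. VEGF-C and VEGF-D act through Flt4, the receptor of lymphatic endothelium. Angiopoietin-1 activates the receptor kinase encoded by Tek (Tie2) and stabilises vessels, whereas angiopoietin-2 can oppose it. Factors of the ETS family (Erg, Fli1, Ets1) and of the SOX F group (Sox7, Sox17, Sox18) are known to drive endothelial genes.

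Dio3, the gene of the deiodinase that inactivates thyroid hormones, was not lower in the group labelled for its loss: its mean was 0.52 RPKM in wild type and 2.95 RPKM under the Dio3KO label, with CVs of 0.20 and 0.29. Its log2 ratio was 1.76 ± 0.19 (adjusted p = 0.0408, authors' deposited table). The deleted stretch is not stated in the labels, so these means cannot show whether the transcript was intact. The group is therefore named by its label, and every direction given here rests on that label. The extraction text names hypothalami while source and tissue read testis. Markers of testis cells were found in wild type, with Amh of Sertoli cells at 284 RPKM, Hsd3b1 of Leydig cells at 158 RPKM and Dazl of germ cells at 89.7 RPKM, while the hypothalamic peptide genes Avp, Oxt and Hcrt were at 0.03, 0.06 and 0.03 RPKM. A further hypothalamic peptide gene, Pmch, was higher than these, at 1.89 RPKM, and the most abundant of the 10 brain markers was Mbp at 4.40 RPKM. A gene is said to have risen or fallen in the Dio3KO-labelled group only where its adjusted p in the authors' deposited table was below 0.05. Ratios are given as log2 of the Dio3KO-labelled mean over the wild-type mean, each with 0.5 RPKM added, ± an SE computed from the deposited CVs.

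Endothelial and vascular growth genes were mostly higher in the Dio3KO-labelled testes, by modest factors. Of the 44 genes, 19 rose and 2 fell, while 23 missed the threshold. The Dio3KO-labelled mean was the larger one for 37 of the 44 (84.1%), against 41.6% of the genes with at least 1 RPKM in either group. The background of the comparison was 13.8% higher and 15.8% lower among the 15821 genes with at least 1 RPKM in either group, and 9.95% higher and 11.0% lower among all genes. Among the 7765 genes whose level lay between 1.55 and 14.3 RPKM, the span of most of the 44, it was 13.2% higher and 14.9% lower. Because the 44 were chosen with earlier results of these data known, their counts describe them and test nothing. The median log2 ratio of the 44 was 0.31, beside -0.05 for the genes with at least 1 RPKM, and single values ran from -0.45 to 0.86. Only Ptprb reached a ratio of 2, and the 19 that rose differed by factors of 1.24 to 2.02. Of the 44 genes, those under 1 RPKM in both groups were Sox7, Tal1 and Prox1, none of the 3 passed, and the other 41 were all at or above that level in at least 1 group. Flt4 reached 1 RPKM through the Dio3KO-labelled group alone. In whole testes, more endothelial cells and more RNA per cell cannot be told apart.

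With the limma package's moderated test, rebuilt from the means and CVs and adjusted over the 15821 genes with at least 1 RPKM, 41 of the 44 could be tested. Of these, 23 were called higher and 4 lower, against backgrounds of 18.5% and 23.1%. The 19 that rose and the 2 that fell were all among these. The 6 called by limma alone were Tie1, Pecam1, Erg and Edn1 on the higher side and Plvap and Sox18 on the lower side. When both groups were scaled to equal summed RPKM, limma called 29 higher and 3 lower (backgrounds of 27.9% and 12.7% of the 15821 genes), while the share of higher genes among all genes it called moved from 44.4% to 68.7%. Against limma without rescaling, equal totals added Flt1, Pgf, Angpt2, Egfl7, Icam2 and Ets1 as higher and lost Plvap as lower.

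**Figure D1:**
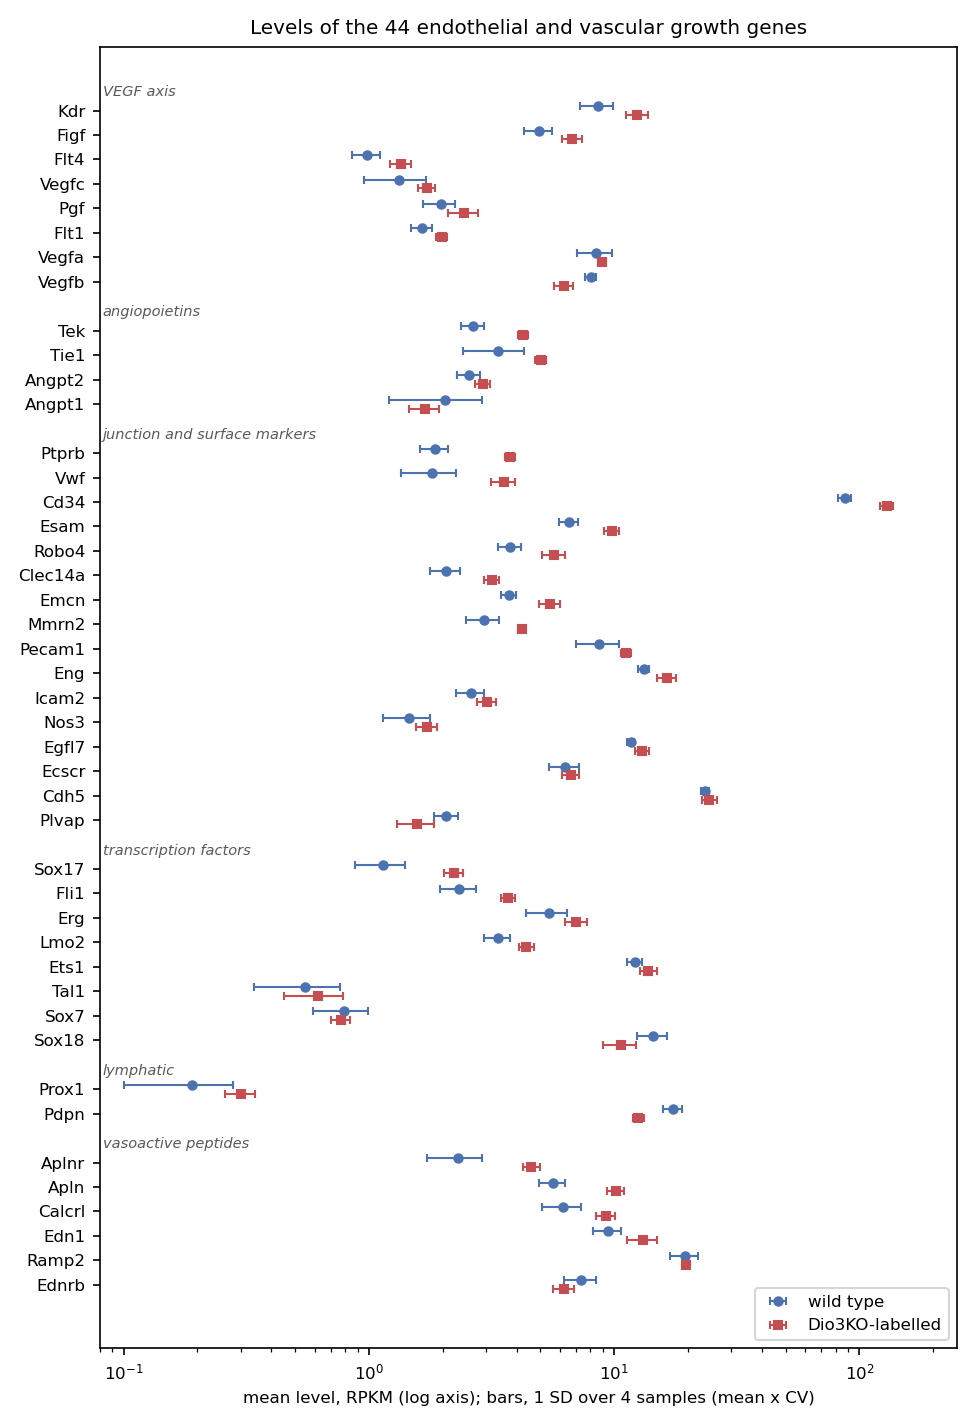
Mean level of each of the 44 genes in RPKM on a log axis, for 4 wild-type samples (circles) and 4 Dio3KO-labelled samples (squares), with bars of 1 SD computed as the mean times the deposited CV; genes are grouped by role. Levels run from Prox1 at 0.19 RPKM to Cd34 at 87.25 RPKM in wild type, and the Dio3KO-labelled symbol lies to the right for 37 genes.

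By level, Cd34 stood far above the rest. Its protein is a sialomucin of endothelial cells that is also found on blood progenitors and on stromal cells of many tissues. Its mean was 87.25 RPKM in wild type, and the next in that group were Cdh5 (23.5 RPKM), Ramp2 (19.4 RPKM), Pdpn (17.3 RPKM), Sox18 (14.5 RPKM) and Eng (13.2 RPKM). In the Dio3KO-labelled group Cd34, Cdh5 and Ramp2 kept ranks 1 to 3, while Pdpn went from rank 4 to rank 8 and Sox18 from rank 5 to rank 11. At the other end Flt4 (0.98 RPKM), Sox7 (0.79 RPKM), Tal1 (0.55 RPKM) and Prox1 (0.19 RPKM) were the lowest of the 44 in wild type. The sum over the 44 genes, in which Cd34 has the largest part, was 334 RPKM (wild type) and 418 RPKM (Dio3KO-labelled).

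Among the VEGF receptors, Kdr and Flt4 rose. Kdr, the main signalling receptor for VEGF-A, was at 8.57 RPKM (CV 0.15) in wild type against 12.45 RPKM (CV 0.10); the log2 ratio was 0.51 ± 0.12, and the adjusted p in the authors' deposited table was 0.0257. The group means were separated by more than the sum of the 2 SDs. Flt4 went from 0.98 (CV 0.13) to 1.35 RPKM (CV 0.10). Its log2 ratio was 0.32 ± 0.08, and the adjusted p in the authors' deposited table was 0.0326. Flt1 had means of 1.65 (CV 0.10) and 1.98 RPKM (CV 0.05), and missed the threshold (adjusted p = 0.0606, authors' deposited table). Its less abundant transcript (1.26 and 1.67 RPKM) passed at 0.0444 in the authors' deposited table, so that the call of Flt1 depends on the transcript. For Kdr, 2 of 3 transcripts passed. Whether a listed Flt1 transcript encodes the soluble receptor is not shown by the table.

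Of the 5 ligands of these receptors 1 rose (20%), 1 fell (20%) and 3 did not pass, and under equal totals Pgf was added as higher. Beside 13.8% higher and 15.8% lower among the genes with at least 1 RPKM, counts from so short a list give it no direction. Vegfa was at 8.41 RPKM (CV 0.16) and 8.93 RPKM (CV 0.04); the log2 ratio was 0.08 ± 0.11, and the adjusted p in the authors' deposited table was 0.5143. None of its 8 listed transcripts passed, and their log2 ratios lay between 0.05 and 0.11. Vegfb, whose product binds the Flt1 receptor, fell from 8.04 (CV 0.05) to 6.26 RPKM (CV 0.09), which is -0.34 ± 0.07 in log2 ratio. In contrast, the VEGF-D gene, listed under its older symbol Figf, rose from 4.93 (CV 0.13) to 6.76 RPKM (CV 0.09), which is 0.42 ± 0.10 in log2 ratio. Their adjusted p values were 0.0219 and 0.0264 in the authors' deposited table. Pgf, the gene of placental growth factor (1.96 and 2.44 RPKM), and Vegfc (1.33 and 1.72 RPKM) did not pass, with adjusted p values of 0.1414 and 0.2078 in that deposited table. Summed over the 5 ligand genes the level was 24.7 RPKM (wild type) and 26.1 RPKM (Dio3KO-labelled), and over the 3 receptor genes it was 11.2 and 15.8 RPKM. The difference between ligands and receptors was not tested, because the table holds no value per sample.

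Of the angiopoietins and their receptors, Tek alone passed by the deposited p, while limma added Tie1 and, under equal totals, Angpt2. Tek rose from 2.66 (CV 0.11) to 4.25 RPKM (CV 0.05). Its log2 ratio was 0.59 ± 0.07, and the adjusted p in the authors' deposited table was 0.0054; each of its 3 transcripts passed. Tie1, the partner receptor of Tie2, had a log2 ratio almost as large, 0.52 ± 0.18, from 3.35 to 5.02 RPKM. It did not pass (adjusted p = 0.0846, authors' deposited table), and its CV was 0.28 in wild type against 0.05 in the other group. The limma test, which pools the spread across genes, called it higher with an adjusted p of 0.0153. Ptprb encodes VE-PTP, the endothelial phosphatase that acts on Tie2 and VE-cadherin. It had the smallest adjusted p of the 44 in the authors' deposited table, 0.0030, and rose from 1.86 (CV 0.13) to 3.76 RPKM (CV 0.05). Angpt1 was at 2.05 RPKM (CV 0.41) and 1.70 RPKM (CV 0.14), and Angpt2 at 2.56 RPKM (CV 0.11) and 2.92 RPKM (CV 0.07). Neither ligand passed, at adjusted p values of 0.4973 and 0.1575 in the deposited table, and the wild-type spread of Angpt1 was the second widest of the 44.

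Of the 16 junction and surface markers, 9 rose (56.2%) and 0 fell, against 13.8% higher and 15.8% lower among the genes with at least 1 RPKM. The list's median log2 ratio was 0.40. Besides Ptprb, the von Willebrand factor gene Vwf rose from 1.81 (CV 0.25) to 3.55 RPKM (CV 0.11), which is 0.81 ± 0.16 in log2 ratio, and all 7 of its transcripts passed. Cd34 rose from 87.25 (CV 0.06) to 129 RPKM (CV 0.06), which is 0.56 ± 0.06 in log2 ratio. The junction protein gene Esam rose from 6.56 to 9.81 RPKM, and the sialomucin gene Emcn from 3.73 to 5.48 RPKM. The adjusted p values of these 4 genes were 0.0122, 0.0058, 0.0066 and 0.0198 in the authors' deposited table. Robo4, an endothelial receptor that steadies vessels, rose from 3.76 to 5.68 RPKM, and all 5 of its transcripts passed. Clec14a, a lectin-like protein of angiogenic endothelium, rose from 2.07 to 3.18 RPKM, and Mmrn2, the matrix protein that binds it, from 2.94 to 4.21 RPKM. In the authors' deposited table the adjusted p values of Robo4, Clec14a and Mmrn2 were 0.0230, 0.0114 and 0.0311. Eng, the TGF-beta co-receptor endoglin, rose from 13.2 (CV 0.05) to 16.4 RPKM (CV 0.09) and stood nearest to the threshold (adjusted p = 0.0487, authors' deposited table). The recomputed unequal-variance test gave it an adjusted p of 0.051 and ended the call.

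Several widely used endothelial markers did not pass by the deposited p, though limma called Pecam1 higher and, under equal totals, also Egfl7 and Icam2. Cdh5, which encodes VE-cadherin of the endothelial adherens junction, was at 23.5 RPKM (CV 0.04) and 24.4 RPKM (CV 0.07); the log2 ratio was 0.05 ± 0.06 (adjusted p = 0.4239, authors' deposited table), although the spread of this gene was among the narrowest of the 44. Ecscr, a surface protein gene of endothelium, was at 6.29 and 6.66 RPKM, and Egfl7, which encodes a secreted endothelial protein and holds the microRNA miR-126 in an intron, at 11.68 and 13.02 RPKM. For Ecscr and Egfl7 the adjusted p values were 0.5149 and 0.1322 in the authors' deposited table. Icam2 (2.60 and 3.03 RPKM) and Nos3, the endothelial nitric oxide synthase (1.46 and 1.73 RPKM), did not pass either. Pecam1, the gene of CD31, had a mean of 8.71 RPKM (CV 0.20) in wild type and 11.2 RPKM (CV 0.05) in the other group, with a log2 ratio of 0.34 ± 0.14. In the authors' deposited table its adjusted p was 0.1227 and none of its 4 transcripts passed, while limma gave 0.0336. Plvap, which forms the diaphragms of fenestrated capillaries, was the marker with the lower Dio3KO-labelled mean, 1.57 RPKM (CV 0.17) against 2.07 RPKM (CV 0.11). Its adjusted p was 0.0788 in the authors' deposited table and 0.0417 by limma, but 0.117 by limma under equal totals and 0.0815 when centred on the median gene. The 16 markers thus ran from -0.31 to 0.85 in log2 ratio, and whether any pair of them differed in its change could not be tested without values per sample.

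**Figure D2:**
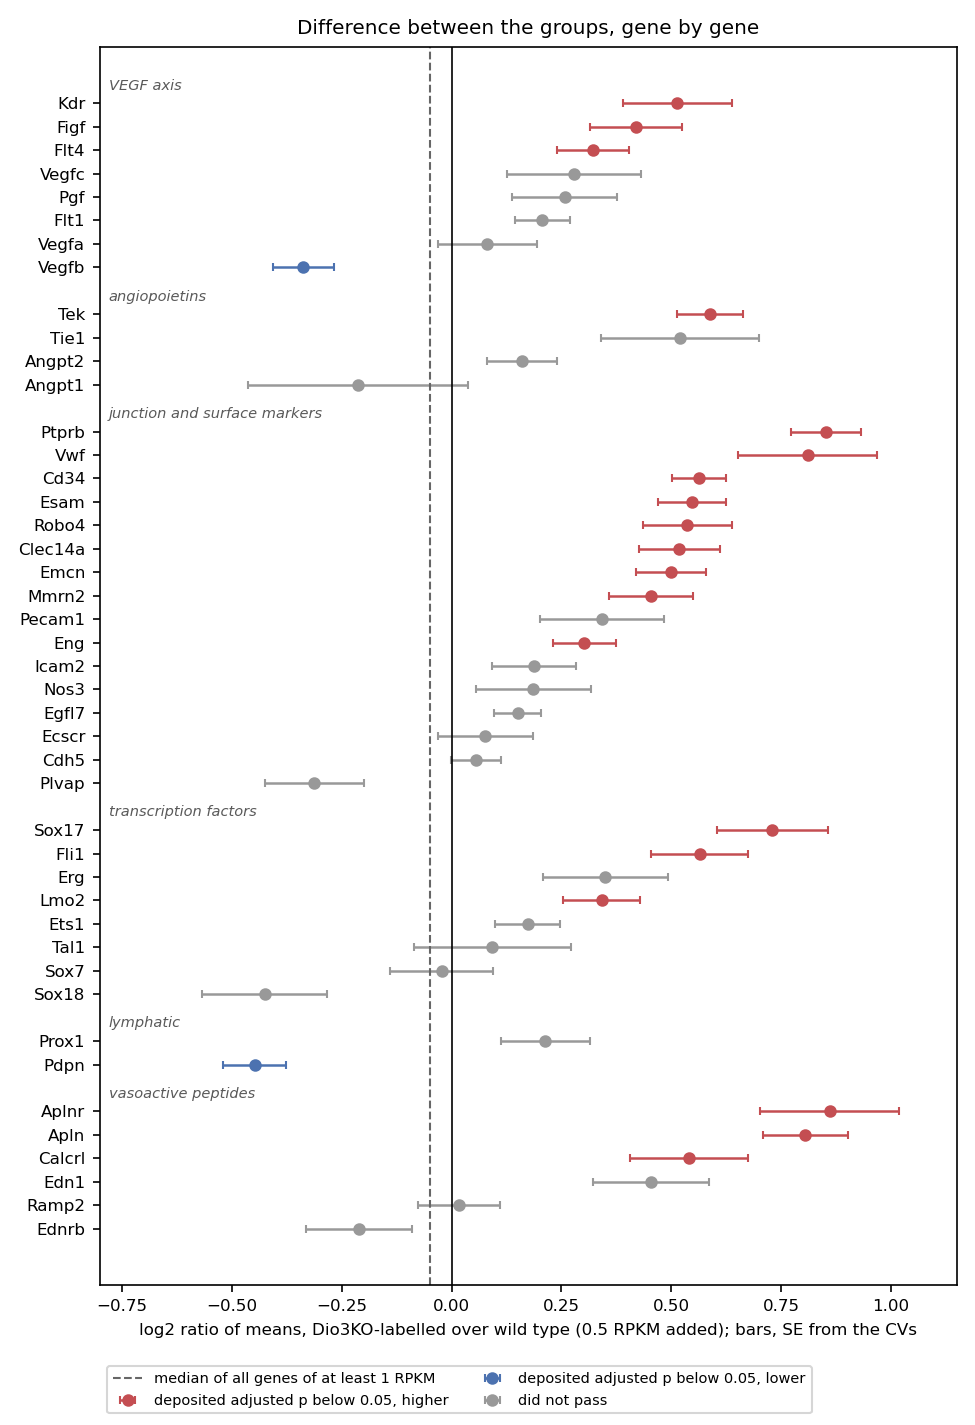
Log2 ratio of the Dio3KO-labelled mean over the wild-type mean (0.5 RPKM added to each) for each of the 44 genes, with bars of 1 SE computed from the CVs; colour shows the call by the deposited adjusted p, and the dashed line is the median of the 15821 genes with at least 1 RPKM, -0.05. The 19 genes that rose reach from 0.30 to 0.86, while Cdh5, Ramp2, Ecscr and Vegfa lie near 0 and Vegfb and Pdpn lie below it.

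Of the 8 transcription factors 3 rose (37.5%) and 0 fell (median log2 ratio 0.26), against 13.8% higher and 15.8% lower among the genes with at least 1 RPKM. Sox17, a SOX F factor of arterial endothelium, rose from 1.14 (CV 0.23) to 2.22 RPKM (CV 0.09). Its log2 ratio was 0.73 ± 0.13, and the adjusted p in the authors' deposited table was 0.0096; all 5 transcripts passed. The related Sox18 was far more abundant in wild type and had the lower mean in the other group, 10.6 RPKM (CV 0.15) against 14.5 RPKM (CV 0.14). Its log2 ratio of -0.43 ± 0.14 reached 0.0755 as adjusted p in the authors' deposited table and 0.0133 by limma. Sox7, the other member of the group, was at 0.79 and 0.77 RPKM. Fli1 rose from 2.34 to 3.70 RPKM (adjusted p = 0.0153, authors' deposited table), whereas the other ETS factors did not pass, with Erg at 5.40 RPKM (CV 0.19) and 7.02 RPKM (CV 0.10) and Ets1 at 12.2 and 13.8 RPKM. Limma called Erg higher with an adjusted p of 0.0332, and under equal totals Ets1 as well. Lmo2, an adaptor shared by the endothelial and blood lineages, rose from 3.36 to 4.39 RPKM (adjusted p = 0.0378, authors' deposited table), in 3 of its 4 transcripts. Tal1, its partner in both lineages, was at 0.55 RPKM (CV 0.38) and 0.62 RPKM (CV 0.27).

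Fli1, Lmo2, Ets1, Tal1, Pecam1, Icam2 and Cd34 are also known from blood cells, and macrophage genes moved in the same comparison. Of 17 macrophage and myeloid markers, 14 rose (82.4%) and 0 fell, against 13.8% higher and 15.8% lower among the genes with at least 1 RPKM. Their summed level was 100 RPKM (wild type) and 200 RPKM (Dio3KO-labelled). Of the 2 most abundant, C1qc rose from 12.3 to 25.9 RPKM and Lyz2 (24.2 and 41.2 RPKM) did not pass. Their part in the levels of the genes shared with blood cells was not tested. Of 9 erythroid markers other than Tal1, 1 passed (11.1%), Gata1, a factor that Sertoli cells also express. The globin genes Hba-a2 (727 and 611 RPKM) and Hbb-bs, listed as Beta-s (710 and 649 RPKM), did not pass, and their wild-type CVs were 0.53 and 0.57 against 0.16 for both in the other group. Among 8 platelet and megakaryocyte markers Pf4 alone rose (12.5%), from 6.21 to 12.8 RPKM, while Itgb3 (5.10 and 4.73 RPKM) did not pass. All 8 lymphoid markers were under 2 RPKM, the highest being Cd79b (0.95 and 1.75 RPKM) and Lck (1.08 and 1.25 RPKM), and none passed.

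Of the lymphatic markers, Pdpn fell and Prox1 was the least abundant of the 44 genes. Pdpn encodes podoplanin, a surface protein of lymphatic endothelium that is also made by mesothelial, epithelial and stromal cells. It fell from 17.3 (CV 0.09) to 12.6 RPKM (CV 0.05), which is -0.45 ± 0.07 in log2 ratio, the lowest of the 44 (adjusted p = 0.0286, authors' deposited table). Prox1, the factor that specifies lymphatic endothelium, was at 0.19 RPKM (CV 0.47) and 0.30 RPKM (CV 0.14). The level of Pdpn was thus many times that of Prox1 in both groups. Of 7 mesothelial markers, 0 passed by the deposited p, with Upk3b at 7.36 and 8.98 RPKM. The Dio3KO-labelled mean was the larger one for 5 of the 7, and the list's median log2 ratio was 0.15. Limma called 2 lower, the keratin genes Krt8 and Krt18. Krt8, at 10.7 RPKM (CV 0.30) and 2.83 RPKM (CV 0.21), had its adjusted p at 0.05 in the authors' deposited table, which is not below the threshold, and 0.000143 by limma. Krt18, named with its value in view, was at 7.81 RPKM (CV 0.38) and 3.83 RPKM (CV 0.12), with adjusted p values of 0.1459 in the authors' deposited table and 0.0097 by limma. The part of these cells in the level of Pdpn was not tested. Lyve1 (2.88 and 3.45 RPKM) and Mmrn1 (1.27 and 1.50 RPKM), 2 further genes of lymphatic endothelium, did not pass.

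The genes of apelin and of its receptor both rose. Apln, which encodes the peptide and is known from the tip cells of sprouting vessels, went from 5.62 (CV 0.12) to 10.2 RPKM (CV 0.08), which is 0.80 ± 0.10 in log2 ratio. Aplnr, the gene of its receptor, went from 2.31 (CV 0.25) to 4.60 RPKM (CV 0.08), which is 0.86 ± 0.16 in log2 ratio, the highest of the 44. Adjusted p values were 0.0054 and 0.0113 in the authors' deposited table. Calcrl, the receptor for adrenomedullin when paired with Ramp2, rose from 6.19 (CV 0.18) to 9.23 RPKM (CV 0.09) (adjusted p = 0.0286, authors' deposited table). Its partner Ramp2 did not pass, at 19.4 RPKM (CV 0.13) and 19.6 RPKM (CV 0.03), and its log2 ratio was 0.02 ± 0.09. For Ramp2, 33.4% of the annotated exon bases are shared with Vps25 on the same strand, so reads of the 2 genes may not be separable. Edn1, the gene of the vasoconstrictor endothelin-1, was at 9.46 RPKM (CV 0.13) and 13.15 RPKM (CV 0.14). Its adjusted p was 0.0573 in the authors' deposited table and 0.00628 by limma. The endothelin receptor gene Ednrb (7.32 and 6.26 RPKM) did not pass either. Of the 6 vasoactive genes 3 rose (50%) and 0 fell (median log2 ratio 0.50), against 13.8% higher and 15.8% lower among the genes with at least 1 RPKM.

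The promoters of the 44 genes were then read for short motifs, since Erg, Fli1 and Ets1 bind sequences with a GGAA core. The 250 bases before the annotated start were taken from RefSeq (GRCm38.p6) for the 24 genes that have an entry. The letters CAGGAAG, on either strand, occurred in such a window of 7 of the 24 genes (29.2%) and of 12.3% of the 9570 genes with at least 1 RPKM and an entry. They were found for 5 of the 11 that rose (Cd34, Emcn, Robo4, Apln and Calcrl), for 0 of the 2 that fell and for 2 of the 11 that did not pass (Egfl7 and Erg). The letters CCGGAAG, another form of the core, were in 0 of the 24 (15.0% of all), AACAAT of SOX factors in 4 (16.7%, against 6.67%), AGATAA of GATA factors in 4 (16.7%, against 7.2%), the nuclear receptor half-site AGGTCA in 6 (25.0%, against 13.0%) and ACGTG of hypoxia-inducible factors in 3 (12.5%, against 25.0%). Some genes have several windows, and parts of some windows lie inside longer annotated transcripts. The matching windows of Egfl7 and Erg lie wholly inside the annotated gene. For Robo4 the match lies in the part of its window inside the annotated gene. The minimum of 1 RPKM was not applied to the 24 genes, which include Tal1 and Prox1, both under it in both groups. Tal1 is among the 4 with AGATAA. A match is a run of letters and not a bound site. Shown are 3 genes that rose and carry CAGGAAG or its reverse complement CTTCCTG, in capitals. The 2 genes that fell, which carry neither, follow. The windows shown were chosen by call and match, and genes that rose without a match, such as Eng and Clec14a, are left out. The shorter core GGAA, or its reverse complement TTCC, does occur in the windows of both genes that fell. Each window runs from 5′ to 3′ on the strand of the gene and ends before the first annotated base of the gene.
Cd34, chr1:194938571-194938818, plus strand: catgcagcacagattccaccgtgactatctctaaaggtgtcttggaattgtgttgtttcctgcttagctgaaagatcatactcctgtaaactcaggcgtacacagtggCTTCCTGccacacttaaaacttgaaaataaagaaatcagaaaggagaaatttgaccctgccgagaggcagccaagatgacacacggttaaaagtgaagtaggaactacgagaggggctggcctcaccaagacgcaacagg
Emcn, chr3:137340828-137341061, plus strand: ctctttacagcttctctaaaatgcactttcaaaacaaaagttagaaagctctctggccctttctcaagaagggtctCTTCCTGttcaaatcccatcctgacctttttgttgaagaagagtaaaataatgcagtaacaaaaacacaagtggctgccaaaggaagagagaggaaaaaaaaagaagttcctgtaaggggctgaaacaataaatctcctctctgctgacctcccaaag
Apln, chrX:48034854-48035103, minus strand: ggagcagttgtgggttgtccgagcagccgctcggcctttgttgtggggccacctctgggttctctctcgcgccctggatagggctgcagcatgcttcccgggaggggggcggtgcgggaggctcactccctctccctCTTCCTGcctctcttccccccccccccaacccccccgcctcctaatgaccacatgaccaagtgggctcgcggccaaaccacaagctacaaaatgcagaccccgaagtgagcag
Pdpn, chr4:143299565-143299814, minus strand: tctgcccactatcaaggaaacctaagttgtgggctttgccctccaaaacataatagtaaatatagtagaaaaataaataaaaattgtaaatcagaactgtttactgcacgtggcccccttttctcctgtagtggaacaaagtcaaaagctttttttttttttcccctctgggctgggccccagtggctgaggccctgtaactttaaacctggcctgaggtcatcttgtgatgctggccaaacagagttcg
Vegfb, chr19:6987652-6987901, minus strand: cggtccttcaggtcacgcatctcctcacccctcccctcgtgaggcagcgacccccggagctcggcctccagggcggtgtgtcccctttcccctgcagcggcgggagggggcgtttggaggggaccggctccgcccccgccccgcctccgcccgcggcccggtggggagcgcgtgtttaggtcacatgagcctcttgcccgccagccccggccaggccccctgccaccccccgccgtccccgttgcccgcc

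A list of 44 other endothelial genes, none of them among those chosen by name and with Lyve1 and Mmrn1 in it, was looked at beside them. For it and the lists below, the background was 13.8% higher and 15.8% lower among genes with at least 1 RPKM. Among all genes it was 9.95% and 11.0%. In this list 13 rose (29.5%) and 1 fell (2.27%), while 30 missed the threshold and the median log2 ratio was 0.13. Among those with at least 2 RPKM in either group, the largest rises in log2 ratio with 0.5 RPKM added were those of Procr, the endothelial protein C receptor, from 3.38 to 7.19 RPKM, of Ly6c1 from 2.25 to 4.94 RPKM, of the tight junction gene Cldn5 from 7.29 to 13.3 RPKM, of Palmd from 1.91 to 3.46 RPKM and of Stab1, a scavenger receptor that macrophages also carry, from 9.81 to 15.8 RPKM. Palmd reached 2 RPKM through the Dio3KO-labelled group alone. Acvrl1, the endothelial BMP9 receptor, was the gene that fell, from 17.05 to 10.7 RPKM, and is named with its value in view. Exoc3l2 (73.2 and 67.6 RPKM) and Thbd (67.6 and 72.3 RPKM) were the most abundant that did not pass.

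In the list of 23 other genes of the VEGF and angiopoietin pathways, 6 rose (26.1%) and 1 fell (4.35%). The list's median log2 ratio was 0.22. Angpt4, a further Tie2 ligand, rose from 1.13 (CV 0.45) to 4.65 RPKM (CV 0.18) (adjusted p = 0.0104, authors' deposited table). It reached the 2 RPKM needed for naming only through the Dio3KO-labelled group. Both neuropilins, the co-receptors of VEGF, rose, Nrp1 from 22.8 to 35.4 RPKM and Nrp2 from 4.20 to 6.44 RPKM. Angptl4 rose from 21.3 to 37.8 RPKM, and Ccbe1, which helps to activate VEGF-C, from 3.26 to 5.70 RPKM. Plcg1, a signalling enzyme below Kdr, fell from 37.6 to 33.3 RPKM. Timp3 (51.2 and 54.9 RPKM) and Hspg2 (50.7 and 49.1 RPKM) did not pass. The axis of Angpt1, Angpt2 and Angpt4 therefore held 1 ligand gene that rose and 2 that did not pass.

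Of 23 genes of arteries, veins and tip cells, 6 rose (26.1%) and 0 fell. The list's median log2 ratio was 0.21. Adm, the gene of adrenomedullin and thus of a Calcrl ligand, rose from 2.45 to 4.39 RPKM. It is also in the vasoactive and hypoxia lists below, so the same rise is counted in each. The arterial gap junction gene Gja4 rose from 2.89 to 4.60 RPKM, Notch1 from 8.36 to 10.9 RPKM and Nid2 from 29.03 to 38.75 RPKM. The others that rose, Bmx (0.23 to 0.38 RPKM) and Ackr1, listed as Darc (0.09 to 0.22 RPKM), were under 1 RPKM and are likewise named with their values in view. Cxcl12 (43.85 and 50.9 RPKM) and the venous receptor gene Ephb4 (23.3 and 25.2 RPKM) did not pass.

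Among 23 measured genes of other vasoactive systems, 10 rose (43.5%) and 2 fell (8.7%). Adm, named above, is again among the 10. The list's median log2 ratio was 0.19. Agtr1a, a receptor of angiotensin II, rose from 1.45 (CV 0.15) to 5.44 RPKM (CV 0.15), and Agt, the gene of its precursor peptide, from 12.3 to 18.5 RPKM. Agtr1a reached the 2 RPKM needed for naming only through the Dio3KO-labelled group. Npr1, the receptor for atrial natriuretic peptide, rose from 81.7 to 144 RPKM, and Gucy1b3, a subunit of the nitric oxide receptor, from 5.86 to 9.13 RPKM. Edn2 (0.44 to 0.09 RPKM) and the endothelin processing gene Ece2 (8.19 to 6.15 RPKM) fell, and were chosen for naming with their values in view. Ece1 (34.2 and 35.2 RPKM) and Gucy1a3 (26.8 and 27.75 RPKM) did not pass.

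The hypoxia response controls Vegfa in many tissues. Of 19 of its genes, Adm among them, 5 rose (26.3%) and 3 fell (15.8%). The second share is that of all genes with at least 1 RPKM. The list's median log2 ratio was -0.01. Epas1, the gene of HIF-2-alpha, which is prominent in endothelium, rose from 4.33 (CV 0.14) to 16.0 RPKM (CV 0.12); the log2 ratio was 1.77 ± 0.12, and the adjusted p in the authors' deposited table was 0.0079. Hif1a (63.5 and 58.25 RPKM) and Pgk1 (77.0 and 73.15 RPKM) did not pass. Pdk1 rose from 27.05 to 36.6 RPKM, while Ldha fell from 51.75 to 36.8 RPKM and Ankrd37 from 3.08 to 1.51 RPKM.

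Lists of neighbouring cells differed in their median log2 ratio. Of 13 markers of pericytes and smooth muscle, the cells that cover vessels and tubules, 2 rose (15.4%) and 3 fell (23.1%). Beside 13.8% higher and 15.8% lower among the genes with at least 1 RPKM, counts from so short a list give it no direction. The list's median log2 ratio was 0.08. Their most abundant genes were Acta2, which fell from 401 to 346 RPKM, and Tagln (88.35 and 74.9 RPKM), which did not pass. Of 7 fibroblast and stromal markers 2 rose (28.6%) and 0 fell, with a median of 0.46. Their summed level was 2289 RPKM (wild type) and 3266 RPKM (Dio3KO-labelled). Col3a1 (778 and 1071 RPKM) and Col1a2 (637 and 915 RPKM) did not pass, and their wild-type CVs were 0.31 and 0.28. Of 8 germ cell markers 0 passed, with a median of -0.23, Dazl being at 89.7 RPKM in both groups and Mael at 69.35 and 57.0 RPKM. All 10 proliferation genes fell, among them Top2a (119 to 71.4 RPKM) and Ccna2 (80.8 to 48.3 RPKM). Among Leydig cell markers 2 of 6 rose (33.3%), Cyp11a1 (64.2 to 156 RPKM) and Hsd3b1 (158 to 245 RPKM). Of 9 Sertoli cell markers 4 rose (44.4%), among them Clu (797 to 1232 RPKM) and Aard (579 to 752 RPKM). Gata1, counted above among the erythroid markers, was another of these. Of the 4 Sertoli cell markers that fell (44.4%), Amh went from 284 to 127 RPKM and Fshr from 17.8 to 9.49 RPKM. The others were Dhh (82.4 to 64.2 RPKM) and Gata4 (76.8 to 62.1 RPKM), and all were named with their values in view. Of the 10 brain markers 2 (20%) passed and fell, Mbp (4.40 to 2.39 RPKM) and Pmch (1.89 to 1.05 RPKM). The part of these cells in the endothelial values was not tested.

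**Figure D3:**
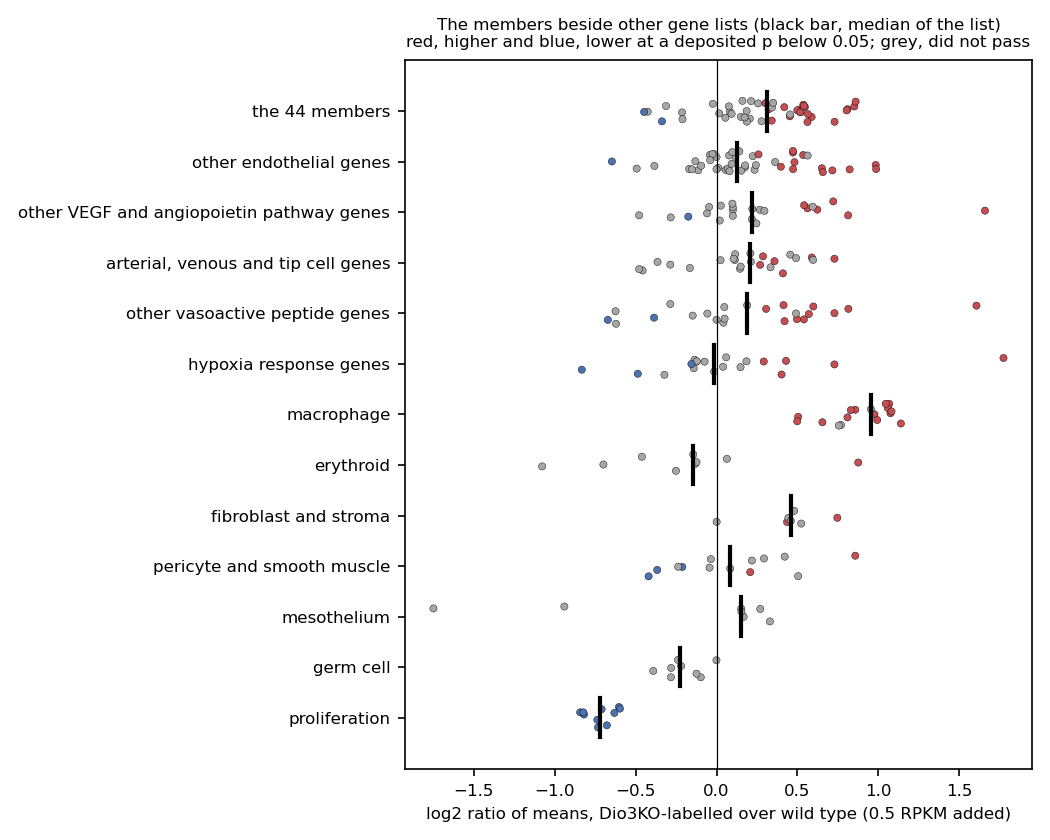
Log2 ratio of the Dio3KO-labelled mean over the wild-type mean for the 44 endothelial and vascular growth genes and for 12 other lists; each point is a gene, coloured by the deposited call, and the black bar is the median of the list. The median of the 44 genes is 0.31, that of macrophage markers 0.95 and that of proliferation genes -0.72.

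The spread within the groups was wider in wild type for most of the 44 genes. The wild-type CV was the larger one for 33 of them and the Dio3KO-labelled CV for 9, and 2 were equal. The share of 75.0% compares with 59.5% of the 15821 genes with at least 1 RPKM. Median CVs of the 44 were 0.135 in wild type and 0.085 in the other group, beside 0.08 and 0.06 for those 15821 genes. The widest wild-type spreads were those of Prox1 (CV 0.47), Angpt1 (CV 0.41), Tal1 (CV 0.38), Tie1 (CV 0.28) and Vegfc (CV 0.28). The stromal, mesothelial and erythroid lists above had the larger CV in wild type for every measured gene, with list medians of 0.27, 0.29 and 0.55 against 0.09, 0.09 and 0.18. Whether 1 wild-type sample lay apart cannot be read from group means. Among the 12 genes with at least 10 RPKM in either group, the wild-type CV was the larger one for 5.

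**Figure D4:**
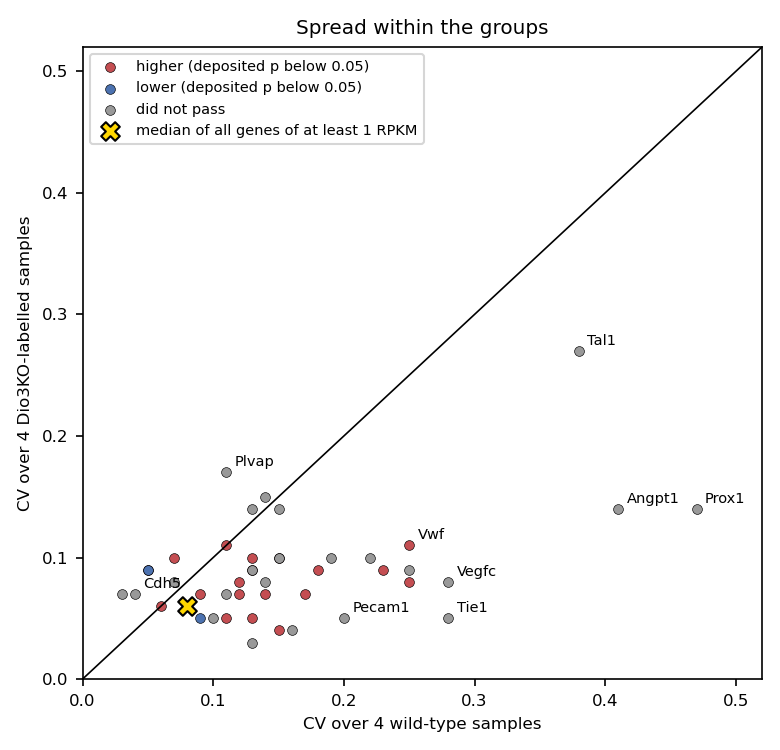
CV over the 4 Dio3KO-labelled samples against the CV over the 4 wild-type samples for each of the 44 genes, with the line of equality and the median of all genes with at least 1 RPKM (cross at 0.08 and 0.06). Of the 44 points 33 lie below the line, and Prox1, Angpt1 and Tal1 lie farthest to the right.

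The 44 genes lie on 19 chromosomes of the mm10 (GRCm38) assembly, and few are neighbours. Fli1 (chromosome 9, 32422204 to 32543432) and Ets1 (chromosome 9, 32636241 to 32757820) lie side by side; of these Fli1 rose and Ets1 did not pass. Robo4 (chromosome 9, 37401902 to 37414023) and Esam (chromosome 9, 37528089 to 37538319) lie close together and both rose. Icam2 (chromosome 11, 106377656 to 106388139) and Pecam1 (chromosome 11, 106654213 to 106715281) did not pass. By GENCODE M21, annotated exons of 10 of the 44 share bases with another gene, in 9 cases one on the opposite strand. The largest opposite-strand overlaps are those of Nos3 with Gm15587 (25.2% of its exon bases), Sox17 with Gm37587 (16.8%) and Angpt1 with Gm17473 (14.2%). Since the strandedness of the counting is unstated, the reads of these pairs may not be separable.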

How the data were processed

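Whole testes were measured by RNA sequencing in 4 wild-type and 4 Dio3KO-labelled samples, grouped by title. Per the file headers, the authors deposited for each transcript the group mean in RPKM, the CV (a ratio of SD to mean) and an adjusted p-value. FastQC, Novoalign 2.08 and mm10 are named in the submitters' processing notes; for the counting, its annotation and strandedness and the authors' test no source used here gives a statement. The 147417 lines held 49139 transcripts, each 3 times. Repeats were dropped. Columns with values of single samples numbered 0. Depth per sample is unknown, so no counting interval was computed.

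Calls use the deposited p below 0.05. The added limma 3.58.1 test (R 4.3.3) took variances of log2(RPKM + 0.5) from the CVs, with a CV of 0.00 set to 0.0025 and 6 residual degrees of freedom, shrank them by squeezeVar (trend, robust) over the 15821 genes with at least 1 RPKM in either group, and adjusted by Benjamini-Hochberg. It was tested on simulated data. An unequal-variance test was also recomputed on the RPKM means, with SDs taken as the mean times the CV and without logs or shrinkage. It was adjusted over the same genes by Benjamini-Hochberg. Its rank correlation with the deposited p was 0.9991 across genes, which are not independent replicates. The 44 genes and all other lists were chosen with earlier results of these data known. All 44 are named. Of each pathway list up to 5 genes past the threshold with the largest log2 ratio and a larger mean of at least 2 RPKM were named, and up to 2 not past it with the highest mean; of each marker list, the 2 with the highest mean. Older symbols were matched through RefSeq synonyms, and 5 listed genes (Apela, Hba-a1, Hbb-b2, Hbb-bt, Ahsp) were not matched. Positions are from RefSeq and exon overlaps from GENCODE M21.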

Additional observations from a re-analysis of the deposited data

How the results depend on the processing

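The median log2 ratio of the 44 genes stayed positive under each alternative, and each alternative that gave counts called more of them higher than lower; summing transcripts gave no counts. Among the 23 genes with at least 5 RPKM in either group 9 rose and 2 fell, against 14.3% and 17.9% of the 11778 genes under that filter, but 3 of the 9 (Figf, Emcn and Robo4) passed the filter only through the Dio3KO-labelled group, so the count supports nothing further. The limma test called 4 genes lower instead of 2. With equal summed RPKM it called 29 higher and 3 lower, against 27.9% and 12.7% of the 15821 genes tested. Centring on the median gene gave 26 higher and 3 lower, against 23.0% and 16.7%, with 57.9% of the genes called being higher. The recomputed unequal-variance test gave 18 higher (background 14.0%), Eng being lost (adjusted p of 0.051), and the transcript with the smallest p gave 20, Flt1 being added. The median log2 ratio lay between 0.27 (pseudocount of 1 RPKM) and 0.40 (equal totals). A gene could change sign only where transcripts were summed or exchanged, or the groups rescaled or centred, and none did. The other alternatives kept the sign of each gene by construction. The other pseudocounts and the removed filter also kept the deposited p, so their counts were fixed in advance. No paired analysis was possible because the table holds group means and no column per replicate, and leaving out replicates was not run for the same reason. Depth per sample is unknown, so genes under 1 RPKM cannot be given a limit of detection.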
